A study of Mus musculus with 8 samples.

Results

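Calcineurin-NFAT signalling and the calsarcins were followed through 10 genes in gastrocnemius (GAS) muscle 3 weeks after knockdown of *Mytho* (MYTHO-KD). The genes were the catalytic subunits *Ppp3ca* and *Ppp3cb*, the regulatory subunit *Ppp3r1*, the calcineurin regulator *Rcan1*, the transcription factors *Nfatc1* to *Nfatc4*, and the calsarcins *Myoz1* and *Myoz2*. Each was matched to the array by its gene symbol and was held by 1 probe set, which gave 10 of the 22206 probe sets on the array. All samples came from male C57/Bl6j mice aged 14 weeks by the labels, and an adeno-associated virus (AAV) carrying a short hairpin RNA was injected into the muscle. The 4 arrays of the AAV sh-RNA MYTHO group came from legs that received the hairpin against *Mytho*, and the 4 arrays of the AAV sh-RNA scrmb group came from legs that received a scrambled hairpin. Per the study's methods, the scrambled virus went into the opposite leg of the same animal, the virus was of serotype 1, and the hairpin was driven by the U6 promoter, which is not restricted to muscle fibres. Both groups therefore carried virus and hairpin, and no uninjected muscle was analysed here. Animals are told apart by a number in the column names, which no label explains. They are called A to D, and values of the legs are listed in that order.

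As background, calcineurin is a phosphatase that is switched on when calcium and calmodulin bind it. It removes phosphate groups from NFAT proteins, which then enter the nucleus, and in skeletal muscle this route is known for its role in the slow, oxidative fibre programme. RCAN1 binds calcineurin and restrains it, and NFAT drives transcription of *Rcan1* from an internal start, so that its transcript is widely used as a readout of the pathway. Calsarcins tether calcineurin to the Z-disc of the sarcomere, with calsarcin-2 (*Myoz1*) typical of fast fibres and calsarcin-1 (*Myoz2*) of slow fibres and heart.

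The sequences upstream of *Rcan1* and *Myoz2* are shown because these genes are the pathway readout and the slow-fibre calsarcin. Each is the 250 bases before a start of the gene on the minus strand, taken from RefSeq for GRCm38.p6. Capitals mark the core of the NFAT binding motif, GGAAA or its complement TTTCC, and in *Myoz2* also a match to the MEF2 consensus. The upstream start of *Rcan1* lies behind chr16:92466170-92466419, the internal start behind chr16:92400079-92400328, and that of *Myoz2* behind chr3:123034988-123035237.
Rcan1, upstream start: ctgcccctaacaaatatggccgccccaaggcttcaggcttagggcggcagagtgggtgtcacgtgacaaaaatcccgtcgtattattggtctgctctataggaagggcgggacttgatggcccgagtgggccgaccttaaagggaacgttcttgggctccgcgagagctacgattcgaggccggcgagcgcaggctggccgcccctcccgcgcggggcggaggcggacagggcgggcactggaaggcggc
Rcan1, internal start: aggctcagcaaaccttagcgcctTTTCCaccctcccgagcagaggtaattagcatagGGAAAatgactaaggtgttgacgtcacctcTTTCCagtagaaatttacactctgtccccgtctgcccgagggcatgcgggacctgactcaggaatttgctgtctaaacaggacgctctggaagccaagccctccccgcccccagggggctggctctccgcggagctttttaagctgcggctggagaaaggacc
Myoz2: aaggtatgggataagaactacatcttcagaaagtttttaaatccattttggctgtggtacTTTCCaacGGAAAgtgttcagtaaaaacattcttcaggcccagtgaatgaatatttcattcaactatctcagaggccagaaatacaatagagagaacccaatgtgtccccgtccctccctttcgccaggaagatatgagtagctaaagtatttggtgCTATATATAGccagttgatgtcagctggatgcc

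No match to the NFAT core lay before the upstream start of *Rcan1*, and 3 lay 227, 193 and 163 bases before the internal start. The *Myoz2* window held 2 such matches, which began 190 and 182 bases before the start, and a MEF2 match that began 33 bases before it. Across 32851 promoters of the same length, 55.6% held at least 1 NFAT core, 21.4% at least 2 and 6.39% at least 3, counted on both strands, and 2.92% held the MEF2 consensus. RefSeq windows were found for 7 of the 10 genes, some with several starts, giving 10 windows. Of these, 7 held the NFAT core, 4 held it 3 times and 1, that of *Myoz2*, held the MEF2 consensus. A match describes the letters only and is no evidence of binding. The files give no probe positions, so transcripts from the 2 starts of *Rcan1* cannot be told apart in the values that follow.

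The hairpin's target was measured first. *Mytho*, listed as D230025D16Rik (Entrez gene 234678, chr8:105225146-105253053), had log2 signals of 11.35, 11.31, 10.78 and 11.05 in the scrmb legs and of 8.16, 8.2, 8.8 and 8.08 in the MYTHO legs. It fell in 4 of 4 animals, from a mean of 11.12 ± 0.26 (SD, n = 4) to 8.31 ± 0.33 (SD, n = 4), a log2 difference of -2.81 with an SE of 0.21 and an adjusted p of 0.00044 by limma, which left 14.2% of the scrmb signal. The median log2 signal of an array was 6.39 to 6.47. The skeletal muscle markers were bright in both groups, with a mean log2 signal over the list, leaving out 1 saturated marker, of 18.29 ± 0.1 in scrmb and 18.47 ± 0.04 in MYTHO arrays (SD, n = 4 each). Most T cell markers were dim, with a list mean of 5.74 ± 0.12 and 5.64 ± 0.22 (SD, n = 4 each). The exception was *Cd4*, with means of 8.42 in scrmb and 8.0 in MYTHO arrays. A probe set at the ceiling of 19.93 is saturated, which none of the 10 genes was. Probe sets differ in brightness, so the levels of different genes were not ranked against each other, and a difference between 2 probe sets on an array is used only to compare arrays.

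None of the 10 genes passed an adjusted p of 0.05 in limma, where 0.027% of all probe sets did. At an unadjusted p under 0.05, 2 of 10 passed, against 12.4% of all probe sets. These were *Myoz2*, which was higher in MYTHO-KD muscle, and *Nfatc3*, which was lower. *Myoz2* also met the cut-off the study used, which asks for both a 2-fold change and an unadjusted p under 0.05. It was met by 1.51% of all probe sets, and in the higher direction by 0.261%. Only *Nfatc3* among the 10 had groups that did not overlap, as did 6.46% of all probe sets, with 3.87% in the lower direction. The difference had the same sign in 4 of 4 animals for 3 genes, *Rcan1* and *Myoz2* higher and *Nfatc3* lower, against 19.7% of all probe sets, with 8.94% higher and 10.8% lower. The mean was higher in MYTHO arrays for 4 genes and lower for 6, with a median log2 difference of -0.03 beside -0.005 over all probe sets.

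**Figure D1:**
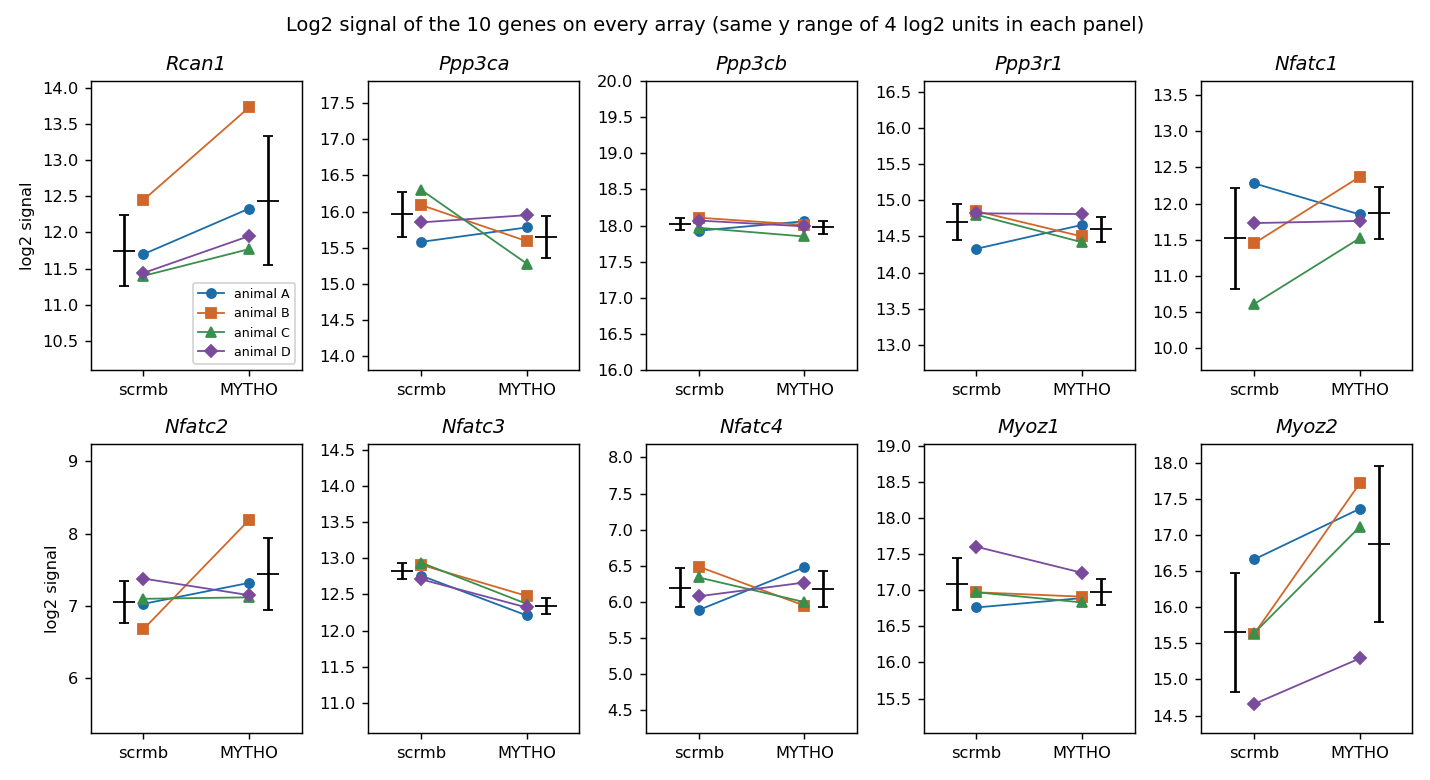
Log2 signal of each of the 10 genes (y axis, the same span in every panel) in scrmb and MYTHO legs (x axis), with the legs of 1 animal joined by a line and black bars for the group mean ± SD of 4 arrays. The lines of *Rcan1* and *Myoz2* slope upwards and those of *Nfatc3* downwards in 4 of 4 animals, and only for *Nfatc3* do the groups not overlap.

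Among the subunits of calcineurin, no difference exceeded the spread between arrays. *Ppp3ca* (Entrez gene 19055, chr3:136669714-136937727), the catalytic subunit alpha, had log2 signals of 15.58, 16.09, 16.3 and 15.85 in scrmb legs and of 15.78, 15.59, 15.28 and 15.95 in MYTHO arrays. The MYTHO leg was lower in animals B and C and slightly higher in A and D, and the groups overlapped. The means were 15.96 ± 0.31 and 15.65 ± 0.29 (SD, n = 4 each), and the log2 difference of -0.30 had a 95% interval from -0.77 to 0.16 and an adjusted p of 0.611 by limma. It was -0.19 without the scrmb array of animal C, -0.182 without its MYTHO array and -0.067 without both, and -0.473 without both arrays of animal A. *Ppp3cb* (Entrez gene 19056, chr14:20499364-20546573), the catalytic subunit beta, varied little. Its log2 signal lay between 17.93 and 18.11 in scrmb and between 17.85 and 18.06 in MYTHO arrays, a log2 difference of -0.04 (95% interval -0.39 to 0.30, adjusted p = 0.946 by limma). *Ppp3r1* (Entrez gene 19058, chr11:17159298-17200380), the calcium-binding regulatory subunit, had log2 signals of 14.33, 14.85, 14.8 and 14.82 in scrmb and of 14.66, 14.5, 14.42 and 14.81 in MYTHO legs. The scrmb array of animal A stood below the other scrmb arrays, and the MYTHO arrays lay within the scrmb range. The log2 difference was -0.10 (95% interval -0.51 to 0.30, adjusted p = 0.873 by limma). It was -0.226 without the scrmb array of animal A, -0.247 without both arrays of animal A and -0.01 without both of animal C. The intervals of *Ppp3cb* and *Ppp3r1* leave room for changes in either direction of the sizes at their ends.

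*Rcan1* (Entrez gene 54720, chr16:92391951-92466169), the feedback regulator, had a higher signal in the MYTHO leg of every animal, but the groups overlapped. Its log2 signals were 11.7, 12.45, 11.4 and 11.44 in the scrmb legs and 12.33, 13.73, 11.77 and 11.95 in the MYTHO legs. Animal B was the highest in both groups, and the scrmb leg of animal B exceeded the MYTHO legs of the other 3 animals. Within animals A to D the log2 differences were 0.63, 1.28, 0.37 and 0.51. The group means were 11.75 ± 0.49 and 12.44 ± 0.89 (SD, n = 4 each), and the log2 difference of 0.70 had an SE of 0.39, a 95% interval from -0.15 to 1.55, an unadjusted p of 0.0999 and an adjusted p of 0.503 by limma. With the animal as a fixed block, the unadjusted p was 0.00861 and the adjusted p 0.235, so *Rcan1* then passed the unadjusted threshold. The value moved with the arrays of animal B. The log2 difference was 0.269 without its MYTHO array (unadjusted p = 0.351 by limma), 0.932 without its scrmb array (unadjusted p = 0.0402) and 0.503 without both (unadjusted p = 0.053). Without the MYTHO array of animal C it was 0.923 (unadjusted p = 0.0446 by limma).

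The differences of the NFAT factors had no common sign. *Nfatc3* (Entrez gene 18021, chr8:106058818-106130537) was lower in MYTHO-KD muscle, and *Nfatc1* and *Nfatc2* had higher means in MYTHO arrays, with groups that overlapped. *Nfatc3* had log2 signals of 12.76, 12.91, 12.94 and 12.71 in the scrmb legs and of 12.21, 12.48, 12.37 and 12.32 in the MYTHO legs. Every MYTHO array lay below every scrmb array, and the log2 differences within animals A to D were alike, at -0.55, -0.43, -0.57 and -0.39. The means were 12.83 ± 0.11 and 12.34 ± 0.11 (SD, n = 4 each), and the log2 difference was -0.48 with an SE of 0.16 and a 95% interval from -0.84 to -0.13, or 71.4% of the scrmb signal. The unadjusted p was 0.0117 and the adjusted p 0.261 by limma. The unadjusted p stayed under 0.05 in each of the 22 alternatives, from 0.00434 to 0.0451, and the adjusted p ran from 0.145 to 0.596. *Nfatc3* starts 0.806 Mb beyond the end of the targeted gene on the same chromosome, and any link between this position and its signal was not tested.

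*Nfatc1* (Entrez gene 18018), the factor most often tied to slow fibres, had log2 signals of 12.28, 11.45, 10.61 and 11.73 in the scrmb legs and of 11.85, 12.37, 11.52 and 11.76 in the MYTHO legs. The MYTHO leg was higher in animals B and C, nearly equal in D and lower in A, and the lowest array was the scrmb leg of animal C. The log2 difference was 0.36 (SE 0.32, 95% interval -0.33 to 1.05, adjusted p = 0.705 by limma). It was 0.055 without the scrmb array of animal C, 0.193 without the MYTHO array of animal B and 0.612 without the scrmb array of animal A. *Nfatc2* (Entrez gene 18019, chr2:168476410-168601657), known best from T cells and from growth of muscle fibres, had log2 signals between 6.68 and 7.38 in scrmb arrays and of 7.32, 8.19, 7.12 and 7.15 in the MYTHO legs. Only the MYTHO array of animal B lay above the scrmb range. The log2 difference of 0.40 (95% interval -0.16 to 0.96, adjusted p = 0.572 by limma) was 0.149 without that array and 0.027 without both arrays of animal B. *Nfatc4* (Entrez gene 73181, chr14:55824795-55833943), better known from heart and brain, lay from 5.89 to 6.49 in scrmb and from 5.95 to 6.48 in MYTHO arrays, about the median of the array. Its log2 difference was -0.02 (95% interval -0.46 to 0.41, adjusted p = 0.978 by limma) and turned positive, at 0.012 and 0.015, under quantile normalization and median centring. The table gives no detection call, so it is not known whether this signal exceeded background.

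**Figure D2:**
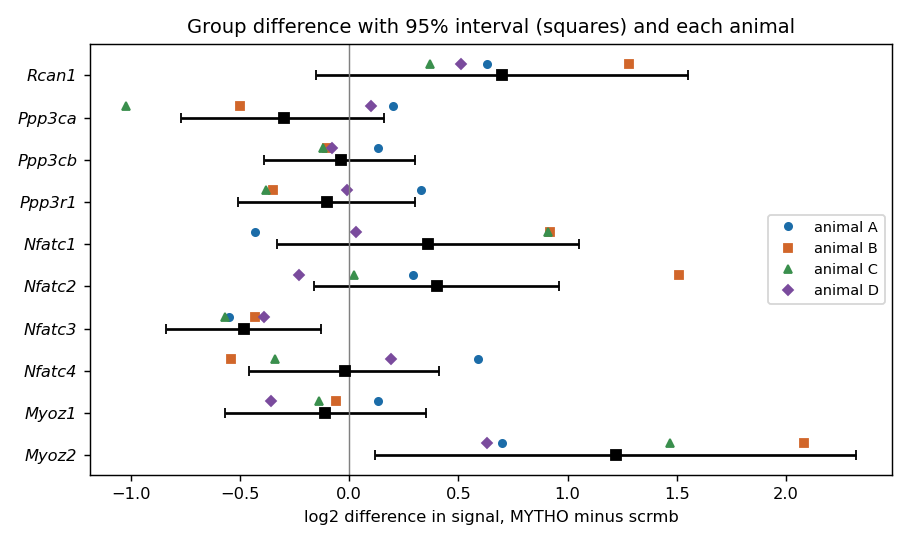
Log2 difference in signal, MYTHO minus scrmb (x axis), for each of the 10 genes (y axis), with squares and bars for the group difference and its 95% interval and coloured points for the 4 animals. The interval lies above 0 for *Myoz2*, from 0.12 to 2.32, and below 0 for *Nfatc3*, from -0.84 to -0.13, and it spans 0 for the other 8 genes.

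The differences of the calsarcins had opposite signs. *Myoz2* (Entrez gene 59006, chr3:123006206-123035003), the slow-fibre calsarcin, had log2 signals of 16.66, 15.63, 15.64 and 14.66 in the scrmb legs and of 17.36, 17.71, 17.11 and 15.29 in the MYTHO legs. It was higher in the MYTHO leg of every animal, by 0.70, 2.08, 1.47 and 0.63 on the log2 scale, but the groups overlapped, since the MYTHO array of animal D lay below 3 of the scrmb arrays. The means were 15.65 ± 0.82 and 16.87 ± 1.08 (SD, n = 4 each), and the log2 difference was 1.22 with an SE of 0.5 and a 95% interval from 0.12 to 2.32, a fold of 2.33. The unadjusted p was 0.0327 and the adjusted p 0.356 by limma. With the animal as a fixed block the unadjusted p was 0.00125 and the adjusted p 0.158, and with trend and robust variances they were 0.11 and 0.519. The unadjusted p lay between 0.0568 and 0.105 when the scrmb array of animal B, C or D or the MYTHO array of animal A, B or C was left out. It was 0.148 without both arrays of animal B, 0.111 without both of animal C and 0.000891, at a log2 difference of 1.746, without the MYTHO array of animal D.

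*Myoz1* (Entrez gene 59011, chr14:20649102-20656540), the fast-fibre calsarcin, had log2 signals of 16.76, 16.97, 16.97 and 17.6 in the scrmb legs and of 16.89, 16.91, 16.83 and 17.24 in the MYTHO legs. Animal D was the highest in both groups, and the groups overlapped. The means were 17.08 ± 0.36 and 16.97 ± 0.18 (SD, n = 4 each), and the log2 difference of -0.11 had a 95% interval from -0.57 to 0.35 and an adjusted p of 0.883 by limma. Without the scrmb array of animal D the difference was 0.068. The signal of *Myoz2* relative to *Myoz1* was then computed on each array as the difference of their log2 signals. It was -0.10, -1.34, -1.33 and -2.94 in the scrmb legs and 0.47, 0.80, 0.28 and -1.95 in the MYTHO legs. Animal D was the lowest of its group in both, and the value was higher in the MYTHO leg of 4 of 4 animals. The group difference of 1.33 did not pass an exact two-sided permutation test, in which the arrays were relabelled in all 70 ways (p = 0.229, the smallest possible being 0.0286). An exact sign-flip test over the 4 animals gave p = 0.125, the smallest that 16 sign patterns allow.

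Slow-fibre markers other than calsarcins also had higher means in MYTHO arrays. Over 8 genes of slow myosin, troponin, tropomyosin and calcium pump isoforms, 7 had an unadjusted p under 0.05 and a higher mean in MYTHO arrays, where 4.81% of all probe sets did, and none passed after adjustment. The median log2 difference of the list was 1.59. *Tnni1*, the slow troponin I, had a log2 difference of 2.44 (unadjusted p = 0.0151, adjusted p = 0.28 by limma), *Myh7*, the slow myosin heavy chain, of 1.82 (unadjusted p = 0.0246, adjusted p = 0.326), and *Atp2a2*, the slow-fibre calcium pump, of 1.51 (unadjusted p = 0.0191, adjusted p = 0.303). The other log2 differences were 1.88 for *Tnnc1*, 1.67 for *Tpm3*, 1.41 for *Tnnt1*, 1.30 for *Myl2* (unadjusted p = 0.131 by limma) and 1.28 for *Myl3*. The mean log2 signal over the list was 13.7, 11.91, 11.94 and 11.61 in the scrmb legs and 14.88, 14.43, 14.81 and 11.68 in the MYTHO legs. Among scrmb arrays that of animal A was the highest for 8 of 8 markers, and among MYTHO arrays that of animal D was the lowest for 8 of 8. The log2 of the summed linear signal ran from 15.47 to 17.62 in scrmb and from 15.74 to 18.71 in MYTHO arrays. In a bulk sample, more slow fibres and more slow-fibre RNA per fibre cannot be told apart, and which region of the muscle was taken is not given in the sources used here. The part of the slow-fibre content in the values of the 10 genes was not tested beyond the ratio that follows.

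*Myoz2* relative to the mean of the slow-fibre markers, again as a difference of log2 signals on each array, was 2.96, 3.72, 3.7 and 3.05 in the scrmb legs and 2.48, 3.28, 2.3 and 3.61 in the MYTHO legs. The groups overlapped, and the MYTHO leg was lower in animals A, B and C and higher in D. The group difference was -0.44 and did not pass the exact two-sided permutation test (p = 0.314). Without an array or an animal this difference ran from -0.775 to -0.123. The exact sign-flip test over the animals gave p = 0.5, and with 4 animals it cannot give less than 0.125. Of the 8 fast-fibre markers, 2 were saturated on all arrays, and *Tnni2*, *Tnnt3* and *Pvalb* stood at 1 value near the ceiling on most arrays. *Mylpf*, at 19.69 to 19.83, was also near it, so that little could be read from these 6. Of the list, only *Myh1*, a fast myosin heavy chain, passed an unadjusted p of 0.05, at a log2 difference of 0.70 (unadjusted p = 0.0178, adjusted p = 0.295 by limma).

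**Figure D3:**
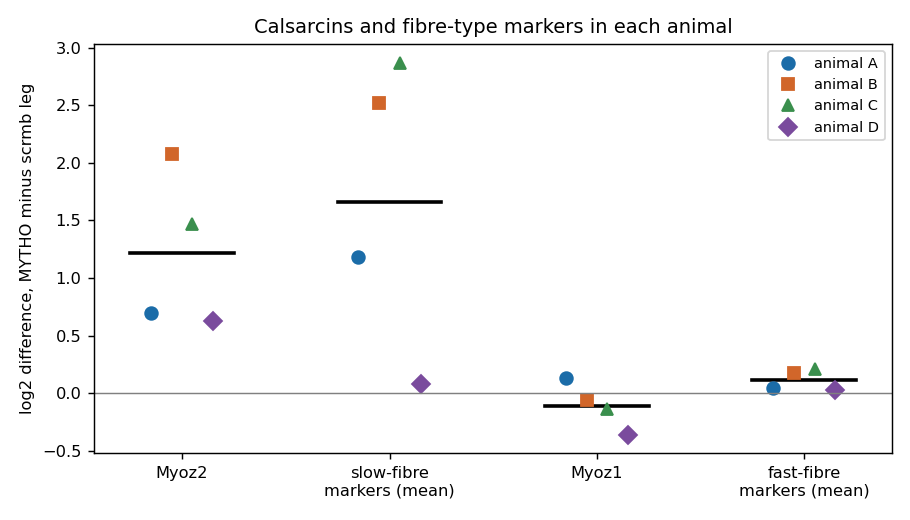
Log2 difference between the MYTHO and the scrmb leg of each animal (y axis) for *Myoz2*, the mean over 8 slow-fibre markers, *Myoz1* and the mean over the 6 fast-fibre markers that were not saturated (x axis), with black bars for the mean over the 4 animals. *Myoz2* and the slow-fibre mean lie above 0 in each animal, with animal D the lowest in both. *Myoz1* lies near 0, and so does the fast-fibre mean, which holds 4 markers near the ceiling among its 6.

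Markers of other cells were read beside these genes. Of 4 endothelial markers, 4 had a higher mean in MYTHO arrays, and *Tek* (log2 difference 0.86, unadjusted p = 0.00606, adjusted p = 0.213 by limma) and *Pecam1* (0.45, unadjusted p = 0.0369, adjusted p = 0.366) passed the unadjusted threshold, as did 4.81% of all probe sets in that direction. The log2 of the summed signal of the 4 markers ran from 13.28 to 13.65 in scrmb and from 13.83 to 13.96 in MYTHO arrays, so that the groups did not overlap. Singly, 3 of the 4 did not overlap, as for 2.59% of all probe sets in that direction. *Cdh5*, the brightest of the 4, had a log2 difference of only 0.22 (unadjusted p = 0.2, adjusted p = 0.635 by limma). The part of endothelial content in the values of *Rcan1* and the NFAT genes, which endothelial cells also express, was not tested. None of the 5 T cell, 5 macrophage, 4 smooth muscle, 4 adipocyte and 4 Schwann cell markers, and none of the 4 probe sets of blood markers, passed the unadjusted threshold. Of 4 fibroblast markers, 3 had a lower mean in MYTHO arrays. *Dcn*, a matrix proteoglycan, passed the unadjusted threshold at a log2 difference of -0.59 (unadjusted p = 0.0085, adjusted p = 0.236 by limma), as did 7.58% of all probe sets in that direction. *Col1a1* (-0.3), *Pdgfra* (-0.22) and the collagen gene *Col3a1* (0.42) did not pass. *Col3a1* differed by 1.89 in animal A and by 0.01, -0.06 and -0.15 in animals B, C and D.

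The rest of the pathway was read from 6 lists with 45 genes in all. None passed an adjusted p of 0.05, 5 had an unadjusted p under 0.05 with a higher mean in MYTHO arrays (4.81% of all probe sets did), none did with a lower mean (7.58% of all probe sets), and 40 passed neither. Under some alternatives *Homer1*, *Calm3*, which codes for a calmodulin, and the kinase genes *Dyrk2* and *Csnk1d* passed with a lower mean, the last 2 only without the scrmb array or both arrays of animal A. The median log2 difference over the 45 genes was -0.01. Without the scrmb array of animal C or the MYTHO array of animal B the 5 genes became 2, *Cib1* and *Dyrk1b*, and without the scrmb array of animal B or the MYTHO array of animal A or D there were 3, *Dyrk1b* among them each time.

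Among 8 NFAT kinases, which return NFAT to the cytoplasm, 1 passed the unadjusted threshold. *Dyrk1b*, a kinase abundant in muscle, had log2 signals of 11.24, 11.19, 10.7 and 11.58 in the scrmb legs and of 12.01, 11.89, 11.89 and 11.94 in the MYTHO legs. Every MYTHO array lay above every scrmb array, as for 2.59% of all probe sets, and the MYTHO arrays were closer to each other than the scrmb arrays. The log2 difference was 0.76 with an SE of 0.2 (unadjusted p = 0.00277, adjusted p = 0.165 by limma). For *Dyrk2* it was -0.48 (unadjusted p = 0.1) and for *Gsk3a* 0.33 (unadjusted p = 0.166), and the median of the list was -0.07.

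Among 10 calcium sensors, anchors and inhibitors of calcineurin, *Cib1*, which codes for a calcium-binding protein that holds calcineurin at the membrane, passed the unadjusted threshold. Its log2 signal was dim, at 4.85, 5.15, 4.9 and 5.14 in scrmb and 5.63, 5.19, 5.5 and 5.89 in MYTHO legs, and the groups did not overlap, though animal B differed by only 0.04. The log2 difference was 0.54 (unadjusted p = 0.0158, adjusted p = 0.285 by limma). The calcineurin inhibitor *Chp1* (0.46, unadjusted p = 0.0544) and the scaffold *Homer1* (-0.36, unadjusted p = 0.0614) did not pass, though *Chp1* did under 6 and *Homer1* under 3 of the 10 alternatives that kept all arrays, and the list median was 0.07. Of 7 genes of store-operated calcium entry, *Orai1*, the pore of the calcium channel, passed at a log2 difference of 0.56 (unadjusted p = 0.0381, adjusted p = 0.37 by limma), and its groups overlapped, from 8.18 to 8.84 in scrmb and from 8.44 to 9.35 in MYTHO arrays. *Trpc1* (-0.36), which also codes for a calcium channel, did not pass, and the list median was 0.05.

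Of 8 MEF2 factors and calcineurin-responsive genes, *Mb*, which codes for the oxygen store myoglobin and is also one of the skeletal muscle markers, passed at a log2 difference of 0.55 (unadjusted p = 0.0245, adjusted p = 0.326 by limma). Within animals A to D it differed by -0.1, 0.85, 1.15 and 0.3, and the slow-fibre mean by 1.18, 2.52, 2.87 and 0.08. The part of slow-fibre content in the value of *Mb* was not tested. The MEF2 factor *Mef2d* (0.57, unadjusted p = 0.0779) and the cytokine gene *Il4* (-0.21, unadjusted p = 0.258), at 3.35 to 3.96 on all arrays, did not pass, and the list median was -0.08. Of 6 partners of calsarcins at the Z-disc, *Actn2*, the alpha-actinin present in all fibre types, passed at a log2 difference of 0.68 (unadjusted p = 0.0474, adjusted p = 0.394 by limma), but not under quantile normalization, either filter on dim probe sets, trend and robust variances or array weights. Like the slow-fibre mean, it was the lowest of its group in the MYTHO leg of animal D, at 16.99 beside 17.83 to 18.55 in the other MYTHO arrays, and the highest of its group in the scrmb leg of animal A, at 17.7 beside 16.93 to 17.1. The part of slow-fibre content in the value of *Actn2* was not tested either. The fast-fibre *Actn3* (-0.13, with the MYTHO array of animal D saturated and so only a lower bound) and the filamin *Flnc* (0.31) did not pass, and the list median was 0.03. Of 6 other calcineurin and calsarcin genes none passed, with log2 differences of -0.38 for the regulatory subunit *Ppp3r2*, dim at 3.5 to 4.81, of -0.04 for *Rcan3*, on a probe set that also names a microRNA, and of 0.07 for *Nfat5*, the NFAT relative that calcineurin does not control. *Rcan2* (0.04), the calsarcin *Myoz3* (0.03) and *Ppp3cc* (-0.01) lay near 0, with a list median of 0.01.

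**Figure D4:**
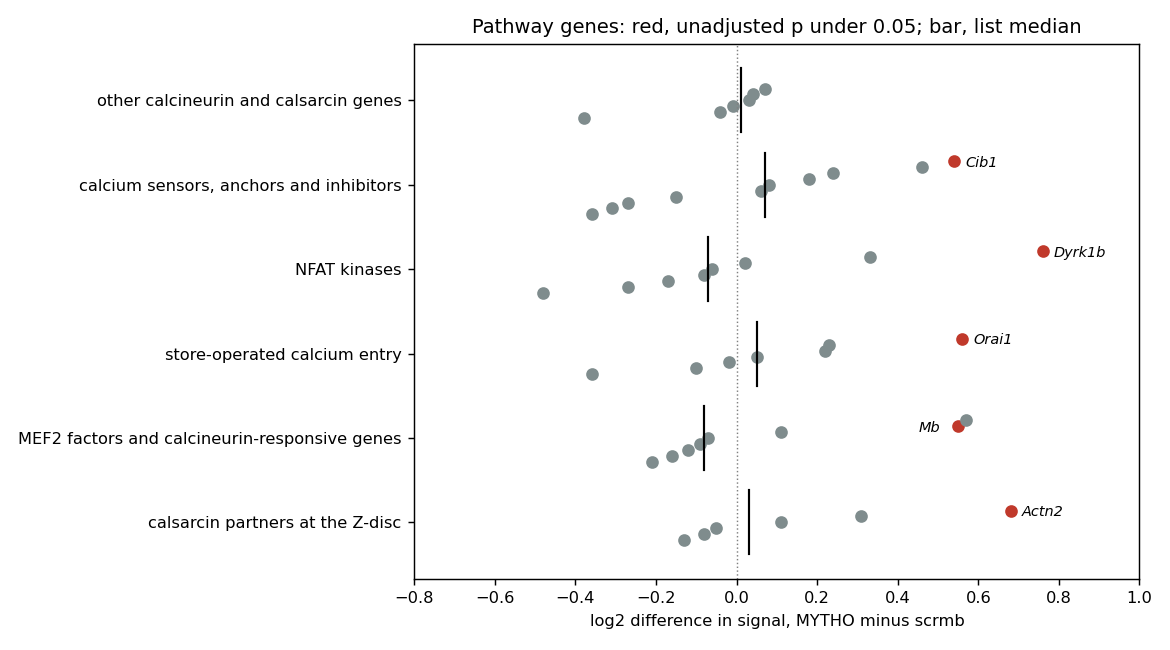
Log2 difference in signal, MYTHO minus scrmb (x axis), for the 45 genes of 6 lists (y axis), with a point per gene, red and named where the unadjusted p was under 0.05, and a black bar at the list median. The 5 red points lie between 0.54 and 0.76, and the list medians lie between -0.08 and 0.07.

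The genes whose log2 signals were most like those of *Rcan1* and *Myoz2* were ranked by Pearson correlation over the 8 arrays, among 21339 probe sets with 1 symbol and no saturated array. The points share animals and groups, so these correlations are given as a description. For *Rcan1* they were *Ids* (0.992), *Sh3rf1* (0.977), *Chml* (0.972), *Cap2* (0.958) and *Cdk17* (0.95), of which none had an unadjusted p under 0.05, with log2 differences from 0.20 for *Cap2* to 0.49 for *Cdk17*. For *Myoz2* they were 1500009C09Rik (0.983), *Lmcd1* (0.978), *Hspb7* (0.977), *Tnni1* (0.96) and *Lmod2* (0.96). The first of these was dim, at 3.93 to 4.52, with a log2 difference of 0.22 (unadjusted p = 0.264 by limma). In MYTHO arrays *Hspb7* was higher by 1.88 on the log2 scale (unadjusted p = 0.0115, adjusted p = 0.259 by limma), *Lmcd1* by 1.04 (unadjusted p = 0.0327, adjusted p = 0.356) and *Lmod2* by 0.82 (unadjusted p = 0.0616, adjusted p = 0.432). The genes most like *Myoz2* thus included 1 of the 8 slow-fibre markers, *Tnni1*, and those most like *Rcan1* included none.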

How the data were processed

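RNA of GAS muscle was extracted with Trizol and hybridised to Clariom S Mouse arrays, 1 per leg. The authors deposited gene-level log2 signals, which the Transcriptome Analysis Console version 4.0.1 made by SST-RMA with annotation release 36 on mm10. Its steps include background correction, quantile normalization and median polish. Plain RMA compresses differences of dim probe sets, and how far this holds for these SST-RMA signals was not tested. The deposited group averages, fold changes, p-values and false discovery rates are the authors' own comparison and were not used. Of 22206 probe sets, 836 named several genes.

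The MYTHO and scrmb arrays were compared by lmFit and eBayes of limma (version 3.58.1, R version 4.3.3; two-sided, MYTHO minus scrmb, no block, as the study states no pairing term), with Benjamini-Hochberg adjustment over all probe sets. Intervals are at 95%. Exact permutation tests used SciPy version 1.17.1. The fit was tested on simulated data. With 4 arrays per group precision is low, and the p-values measure the spread between animals and legs. Each column name holds a number, found once per group, which was taken as that of the animal, though no label says so. The animal so defined served as a block in an alternative. Deviations of the legs of animals A to D from their group means correlated at 0.003, -0.001, 0.135 and 0.087 across probe sets. Between legs of different animals they correlated at -0.167 to 0.104, so these values do not show the pairing. No column could be matched to a replicate number of the labels.

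The members and lists were chosen with earlier results of these data known. Besides the 10 genes and the target, the text names the slow-fibre markers, the up to 3 genes of each pathway list with the lowest unadjusted p, and the 5 genes most like *Rcan1* and *Myoz2*, except 1 gene that is not reported here. Marker genes and other members of the lists are named beside these where a count of 5 or fewer turns on them. Coordinates and promoters are from RefSeq (GRCm38.p6, which is mm10). The 111 genes of the lists all matched by symbol. Alternatives were blocks on animal, quantile normalization, median centring, filters on dim probe sets, eBayes with trend and robust, array weights, no saturated probe sets, 1 probe set per symbol, other thresholds, and leaving out each array. Leaving out both arrays of an animal, and all alternatives of the pathway lists, were added after seeing the data.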

Additional observations from a re-analysis of the deposited data

Results flagged for a closer look

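In 60 groups of 4 arrays, taken over the genes and list means, 1 array stood far from the other 3 in 5 groups, where chance gives about 1 in 20. The measure is the gap to the nearest array divided by the range of the group and was set against Dixon's critical value for 4 values. For *Ppp3r1*, the scrmb array of animal A, at a log2 signal of 14.33, stood below the other scrmb arrays at 14.8 to 14.85 (0.904). For D230025D16Rik, the MYTHO array of animal C, at 8.8, stood above the other MYTHO arrays at 8.08 to 8.2 (0.833), so that the knockdown was the least in this leg. The mean of the MEF2 factors and calcineurin-responsive genes was 12.63 in the MYTHO array of animal B and 12.33 to 12.36 in the others (0.883), and this leg was also the highest of its group for *Rcan1*, *Nfatc1*, *Nfatc2* and *Myoz2*. The slow-fibre mean was 13.7 in the scrmb array of animal A and 11.61 to 11.94 in the others (0.842), and it was 11.68 in the MYTHO array of animal D and 14.43 to 14.88 in the others (0.859). The last of these legs was also the lowest of its group for *Myoz2*, at 15.29. What set these arrays apart was not tested.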

How the results depend on the processing

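No member passed an adjusted p of 0.05 under any of the alternatives run, and none passed 0.1 with all 8 arrays, though *Myoz2* had 0.0944 without both arrays of animal D. The count of members past the cut-off of the study was 0 with trend and robust variances, where *Myoz2* had an unadjusted p of 0.11, and 1 in the other alternatives with all arrays. It ran from 0 to 1 when arrays or animals were left out. At an unadjusted p under 0.05 the count of 2 became 1 with trend and robust variances, 3 with the animal as a fixed block, which added *Rcan1*, and 1 to 2 when arrays were left out, with *Nfatc3* the member that remained. The block on animal, fixed or random, changed no other call of a member, and its random form had a consensus correlation of 0.058. With the block as a sign-flip test, *Myoz2* minus *Myoz1* kept its value of 1.328 at an exact p of 0.125, and the range of this value without an array or animal was 0.823 to 1.944. Pathway genes past the unadjusted threshold numbered 5, 8 with trend and robust variances (*Actn2* lost, *Chp1* and *Mef2d* added as higher, *Homer1* and *Calm3* as lower) and 2 to 7 when arrays were left out, and *Dyrk1b* passed in each of the 22 alternatives. The difference of *Nfatc4* turned positive under quantile normalization (0.012) and median centring (0.015) and ran from -0.23 to 0.147 when arrays were left out. That of *Myoz1* was -0.215 under quantile normalization and ran from -0.212 to 0.068 when arrays were left out, positive only without the scrmb array of animal D. Of 219 values of single members, these 9 of *Nfatc4* and *Myoz1* turned sign, and that of *Ppp3cb* was 0.0 without the MYTHO array of animal C. The causes of these shifts were not tested. Knockdown of *Mytho* stayed between -3.09 and -2.687. Quantile normalization and median centring moved the median log2 difference of all probe sets from -0.005 to 0.0199 and 0.035. The filter to the upper 50% of probe sets gave no value for *Nfatc4*. With 4 arrays per group, the SE of the members' differences was 0.16 to 0.5, and dim probe sets near the array median have no detection call here.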
